A study of Mus musculus with 10 samples.

Results

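The interferon-inducible GTPases described here are 10 genes taken by name from the count tables, out of 53656 genes in all. They are 8 guanylate-binding proteins (Gbp2, Gbp3, Gbp4, Gbp5, Gbp6, Gbp7, Gbp8 and Gbp9) and 2 immunity-related GTPases (Igtp and Irgm1). Their expression was measured by bulk RNA sequencing in mouse CD4 T cells that had been sorted from the tumour-draining lymph node. The KO group, of 6 libraries, held TOX KO cells with the surface phenotype Ly5.1+ Ly5.2- and PD1lo LAG3lo CD39lo. The WT group, of 4 libraries, held TOX WT cells that were Ly5.1+ Ly5.2+ and PD1hi LAG3hi CD39hi. In both groups the cells carried the TCRSMARTA transgenic T cell receptor, had been transferred as naive cells into B6 hosts treated with cytoxan and bearing the tumour B16-GP61, and were recovered 11 days after transfer. TOX, the gene that differs by genotype, encodes a nuclear factor of the HMG-box family that is high in exhausted T cells. Genotype, sort gate and congenic marker always differed together, so their parts in any difference cannot be told apart. The labels give no promoter or Cre for the TOX deletion and do not say which libraries came from separate mice, so p-values measure only the spread between these libraries.

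Guanylate-binding proteins and immunity-related GTPases are among the most strongly interferon-induced proteins of mouse cells, and interferon gamma switches them on through IRF1 among other factors. They gather on the membranes of vacuoles that hold parasites and bacteria, help to break them open and expose their content to inflammasome sensors. Irgm1 and Igtp belong to the regulatory branch of the immunity-related GTPases, which sits on the cell's own membranes and keeps the effector GTPases inactive there; mice without Irgm1 lose CD4 T cells when interferon gamma is made.

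Stretches of the promoters are shown because the members share an interferon motif close to their starts. RefSeq promoter sequences, of 300 bases from 250 before to 50 after a start (GRCm38.p6), were matched for 6 of the 10 members. The interferon-stimulated response element was searched as GAAANNGAAA, or TTTCNNTTTC on the other strand, and the gamma-activated site as TTCNNNGAA, which reads alike on both strands. Capitals mark these matches, 5′ to 3′ on the strand of the gene.
Gbp2: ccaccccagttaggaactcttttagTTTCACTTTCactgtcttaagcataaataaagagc
Gbp3: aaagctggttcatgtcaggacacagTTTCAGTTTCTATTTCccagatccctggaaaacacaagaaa
Gbp5: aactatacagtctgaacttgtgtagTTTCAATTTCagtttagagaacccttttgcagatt
Gbp7: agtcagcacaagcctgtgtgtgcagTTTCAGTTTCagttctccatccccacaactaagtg
Igtp: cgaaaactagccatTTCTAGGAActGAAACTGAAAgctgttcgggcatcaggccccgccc
Irgm1: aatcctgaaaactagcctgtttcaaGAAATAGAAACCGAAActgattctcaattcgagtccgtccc

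On the plus strand lie the windows of Gbp2 (chr3:142620579-142620638), Gbp3 (chr3:142559974-142560039), Gbp5 (chr3:142496744-142496803), Gbp7 (chr3:142530258-142530317) and Igtp (chr11:58199497-58199556). The Irgm1 window (chr11:48871410-48871475) is on the minus strand. In Gbp3 and Irgm1 the run in capitals holds a pair of overlapping response elements, and in Igtp the gamma-activated site comes first. A response element was found in 6 of the 6 members matched, against 3.44% of all 32851 promoters. A member counted if any of its promoter sequences held a match, while that share counts each sequence. Gbp3 had another sequence, on chromosome 3 from 142560106 to 142560405, that held neither motif. A gamma-activated site was found in 3 of the 6, Gbp5, Gbp7 and Igtp, against 8.3% of all promoters; those of Gbp5 and Gbp7 lie outside the stretches printed. Of 7 other interferon-inducible GTPases with a promoter sequence, 5 held a response element and 3 a gamma-activated site. A match describes the letters only and says nothing on which factor was bound in these cells.

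The libraries held 36028980 to 55784453 counts in KO and 31939816 to 45481478 in WT. Levels are given as CPM, the counts of a gene relative to the size of its library, after scaling by trimmed mean of M-values. Tox was lower in KO, at 31.0 ± 20.8 CPM against 236 ± 88.0 CPM in WT (SD, n = 6 and 4), with an adjusted p of 0.010 by the quasi-likelihood test of edgeR, so some Tox reads remained in the KO libraries. Trac and Lck, the most abundant markers of the T cell list, reached 7938 ± 2225 and 5553 ± 883 CPM in KO, against 4294 ± 1886 and 3095 ± 720.1 CPM in WT. Of 10 B cell markers 7 were lower in KO: their sum was 76.8 to 322 CPM in KO libraries (median 186) and 2697 to 10240 CPM in WT libraries (median 6496). Cd79a and Cd79b led that list. Of 15 myeloid and dendritic markers tested 4 were lower, Lyz2, Tyrobp, Cd68 and Fcer1g, while Cst3, also abundant, was not called (adjusted p 0.31). The list summed to 153 to 387 CPM in KO (median 249) and 1956 to 7475 CPM in WT (median 2514). Of 6 plasma cell markers tested 2 were lower, Jchain and Mzb1, while Xbp1 had a log2 fold change of 0.69 (adjusted p 0.68), and that list summed to 75.3 to 747 CPM in KO and 805 to 5726 CPM in WT. Of 5 NK and CD8 markers tested, Klrb1c was higher in KO and the other 4 had negative fold changes that were not called, for example -0.47 for Cd8b1 and -2.17 for Cd8a. That list summed to 211 to 321 CPM in KO and 105 to 184 CPM in WT, most of it Klrb1c in KO. The melanoma and stroma list, led by Pecam1 and Pmel, had no marker called. Tnfrsf17, Clec9a, Tyr and Col1a2 were at 0 in all KO libraries. In WT, Tyr was also at 0 in all libraries and Col1a2 reached at most 0.027 CPM. Tnfrsf17 and Clec9a were at 0 in WT replicate 1 too, and reached 13.9 and 0.80 CPM in other WT libraries. Many cell types transcribe interferon-inducible GTPases, and the part of these other cells in the results below was not tested; in bulk RNA, fewer cells of a type and less RNA per cell cannot be told apart.

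The libraries also carry numbers in their names, which the labels do not explain. Numbers 1 to 3 went to KO replicates 1 to 3 and WT replicate 1, and numbers 4 to 8 to KO replicates 4 to 6 and WT replicates 2 to 4. These sets stood apart: KO libraries had 15163 to 15873 genes with a count in numbers 1 to 3 and 16348 to 17304 in numbers 4 to 8. WT replicate 1 had 14365 such genes and WT replicates 2 to 4 had 19101 to 19775. Each member is therefore given with the sets kept apart.

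None of the 10 members differed between TOX KO and TOX WT cells past the threshold. In the fit by genotype alone 9 of their 10 fold changes were negative, beside 7712 of all 14214 genes tested. With the library set as a term, or by limma-voom, 5 of the 10 were positive, with Gbp4, Gbp6 and Gbp7 turning in both, Gbp8 with the term and Gbp9 by limma-voom. Gbp3, Gbp5 and Gbp9 had the most negative estimates and Igtp the one positive estimate. In all 10 members the mean of the libraries numbered 1 to 3 was below that of numbers 4 to 8. In 6 of the 10 these libraries did not overlap, against 7.56% of all genes lower in numbers 1 to 3 without overlap. Beside genotype in one fit, 7488 of the 14214 genes tested had a negative fold change of numbers 1 to 3 against 4 to 8. The question asked of the members was whether cells without TOX, sorted as low for inhibitory receptors, carried a different level of these interferon-induced transcripts.

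**Figure D1:**
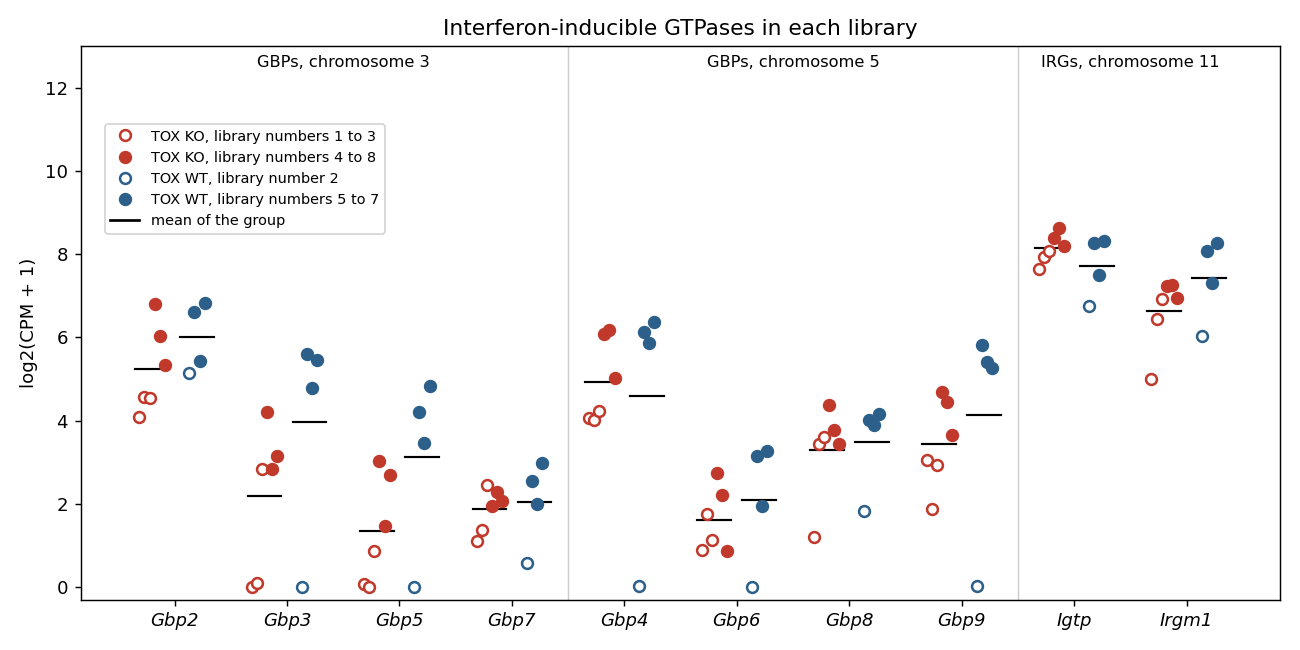
Level of each GTPase, as log2(CPM + 1), in every library; red is TOX KO (6 libraries) and blue TOX WT (4 libraries), open circles are library numbers 1 to 3, filled circles numbers 4 to 8, and bars are group means. In Gbp3, Gbp4, Gbp5, Gbp6 and Gbp9 the open WT circle lies at or near 0, and in Gbp3, Gbp5 and Gbp9 the filled WT circles lie above all KO circles.

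Igtp, also known as Irgm3, was the most abundant member. KO libraries had 199.7, 242 and 267 CPM in numbers 1 to 3 and 334, 394 and 292 CPM in numbers 4 to 8, against 107 CPM in WT replicate 1 and 306, 180.3 and 317 CPM in WT replicates 2 to 4. The groups overlapped, with WT replicate 1 the lowest of all libraries. Means were 288 ± 69.0 CPM in KO and 228 ± 101 CPM in WT (SD, n = 6 and 4), a log2 fold change of 0.34 ± 0.34 (SE) with an adjusted p of 0.64 by edgeR's quasi-likelihood test.

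Irgm1, the other regulatory GTPase, had a fold change of the opposite sign. It had 30.8, 85.3 and 120.2 CPM in KO numbers 1 to 3 and 149, 152 and 122 CPM in KO numbers 4 to 8, against 64.6 CPM in WT replicate 1 and 268, 156 and 308 CPM in WT replicates 2 to 4. The 3 highest libraries were the WT replicates 2 to 4, and only WT replicate 1 fell among the KO values. Means were 109.9 ± 45.7 CPM in KO libraries and 199 ± 110.0 CPM in WT libraries, and the log2 fold change was -0.86 ± 0.49 (SE). With an unadjusted p of 0.11 and an adjusted p of 0.40 by edgeR it had the lowest p of the 10 members and was not called.

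Both immunity-related GTPases lie on chromosome 11 (GRCm38: Igtp at 58199556 to 58207591, Irgm1 at 48861968 to 48871683), and their proportion differed between the groups, a comparison chosen after the values were seen and given with no test. Igtp was 6.49, 2.83, 2.22, 2.24, 2.59 and 2.40 times Irgm1 in KO replicates 1 to 6, against 1.66, 1.14, 1.15 and 1.03 times in WT replicates 1 to 4. Every KO library was above every WT library, on means of 3.13 ± 1.66 and 1.25 ± 0.28 (SD, n = 6 and 4), although neither gene separated the groups by itself. KO replicate 1 was far above the other KO libraries, which without it still ran from 2.22 to 2.83. Of 8098 genes that averaged 8 CPM or more, 3.45% had a ratio to Irgm1 that separated the groups in that direction.

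**Figure D2:**
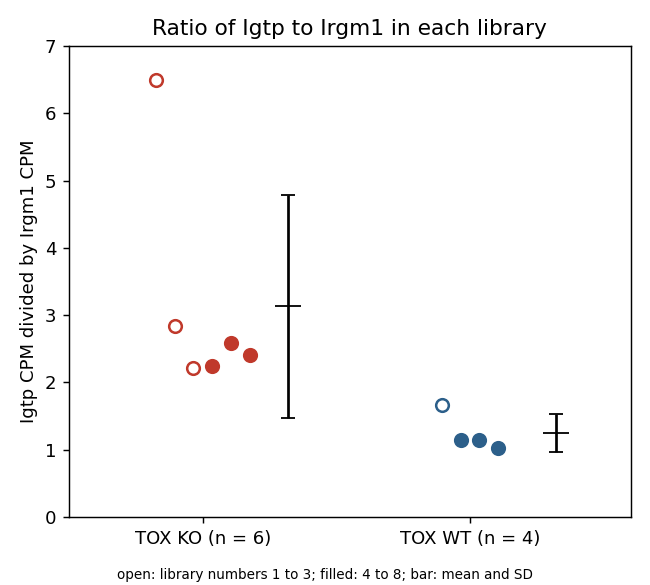
Ratio of Igtp to Irgm1 CPM in each library, TOX KO (6) left of TOX WT (4); open circles are library numbers 1 to 3, filled circles 4 to 8, and bars show mean and SD. The KO ratios run from 2.22 to 6.49 and the WT ratios from 1.03 to 1.66.

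The 4 guanylate-binding proteins of chromosome 3 were lower on average in KO, none past the threshold. Gbp2, which coats parasite vacuoles in mouse cells, was the most abundant of the 4. It had 16.1, 22.9 and 22.3 CPM in KO numbers 1 to 3 and 110.0, 64.0 and 39.7 CPM in KO numbers 4 to 8, against 34.3 CPM in WT replicate 1 and 96.4, 42.2 and 112 CPM in WT replicates 2 to 4. The 4 lowest libraries were those of numbers 1 to 3, whatever the genotype. The log2 fold change of Gbp2 was -0.64 ± 0.59 (SE), with an adjusted p of 0.61 by edgeR.

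Gbp3 had the sharper contrast among the later numbers. Its level in KO was 0, 0.064 and 6.09 CPM in numbers 1 to 3 and 17.4, 6.10 and 7.85 CPM in numbers 4 to 8, against 0 in WT replicate 1 and 47.2, 26.6 and 42.8 CPM in WT replicates 2 to 4. WT replicates 2 to 4 were above all 6 KO libraries, and WT replicate 1 was at the bottom. A count of 0 there allows up to 0.072 CPM, for counting error only. The log2 fold change was -2.22 ± 1.66 (SE) and the adjusted p by edgeR 0.52.

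Gbp5, which promotes NLRP3 inflammasome assembly in mouse macrophages, had the same arrangement at lower levels. KO libraries had 0.057, 0 and 0.813 CPM in numbers 1 to 3 and 7.10, 1.76 and 5.46 CPM in numbers 4 to 8, against 0 in WT replicate 1 and 17.3, 9.98 and 27.6 CPM in WT replicates 2 to 4. Its log2 fold change of -2.44 ± 1.66 (SE) was the most negative of the 10 members, with an adjusted p of 0.47 by edgeR.
Gbp7 had 1.16, 1.59 and 4.52 CPM in KO numbers 1 to 3 and 2.84, 3.90 and 3.18 CPM in KO numbers 4 to 8 (KO median 3.01). WT replicate 1 had 0.507 CPM of Gbp7, and WT replicates 2 to 4 had 4.88, 3.01 and 6.96 CPM. Its groups overlapped throughout, with a log2 fold change of -0.42 ± 0.72 (SE) and an adjusted p of 0.79. Of its exon bases 11.3% are shared with another annotated gene, RP23-100J23.5, so its counts may miss or split reads there.

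Of the guanylate-binding proteins of chromosome 5, Gbp4, Gbp6 and Gbp9 had at most 1 count in WT replicate 1. Gbp4 had 15.8, 15.2 and 17.7 CPM in KO numbers 1 to 3 and 66.7, 70.9 and 31.7 CPM in KO numbers 4 to 8, against 0.024 CPM in WT replicate 1, from a single count, and 68.7, 57.2 and 81.7 CPM in WT replicates 2 to 4. The KO and WT libraries of numbers 4 to 8 overlapped, so the WT library with 1 count set the lower end of the whole range. The log2 fold change was -0.51 ± 1.12 (SE), with an adjusted p of 0.84 by edgeR.
Gbp9 had 7.38, 2.65 and 6.70 CPM in KO numbers 1 to 3 and 24.7, 20.7 and 11.7 CPM in KO numbers 4 to 8, against 0.024 CPM in WT replicate 1, also from 1 count, and 54.9, 41.6 and 37.6 CPM in WT replicates 2 to 4. Unlike Gbp4, WT replicates 2 to 4 of Gbp9 were above every KO library. The log2 fold change was -1.45 ± 1.12 (SE) and the adjusted p 0.53.

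Gbp8 was the only member of this cluster with more than 1 count in WT replicate 1, where it had 105. Gbp8 had 1.30, 9.81 and 11.1 CPM in KO numbers 1 to 3 and 19.7, 12.6 and 9.85 CPM in KO numbers 4 to 8 (KO median 10.5). WT replicate 1 had 2.54 CPM of Gbp8, and WT replicates 2 to 4 had 15.2, 13.8 and 17.0 CPM. The log2 fold change of -0.18 ± 0.69 (SE) was the closest to 0 among the members, with an adjusted p of 0.91.
Gbp6 ranged from 0.812 to 5.73 CPM in KO (median 1.80), against 0, 7.90, 2.88 and 8.65 CPM in WT replicates 1 to 4. Its groups overlapped, with a log2 fold change of -0.99 ± 1.19 (SE) and an adjusted p of 0.70. The Gbp6 value is uncertain, since 70.7% of the 50-base windows of its transcripts also occur in another gene, most of them in Gm43302, and reads from such copies can be split or dropped in counting. That share was 18.1% for Gbp8, 12.7% for Gbp7, 11.8% for Igtp, where the copy is Irgm2, and 8.05% or less for the other 6 members.

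By edgeR, 0 of the 10 members were called between KO and WT at an adjusted p of 0.05, against 3.13% of the 14214 genes tested (0.429% higher and 2.7% lower in KO). At an unadjusted p of 0.05 the members also gave 0, against 18% of all genes, and DESeq2 (4.15% of genes higher and 9.53% lower), limma-voom (1.44% and 4.78%) and a fit with the library set as a term (0.816% and 2.78%) called 0 members as well. The median log2 fold change of the members was -0.75, beside -0.12 over all genes tested. In 0 of the 10 members did the libraries of the groups fail to overlap, against 8.9% of all genes (2.59% higher and 6.31% lower). The standard errors, of 0.34 to 1.66 on the log2 scale, show how wide the spread within a genotype was, and differences of the size estimated here were not detectable against it.

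**Figure D3:**
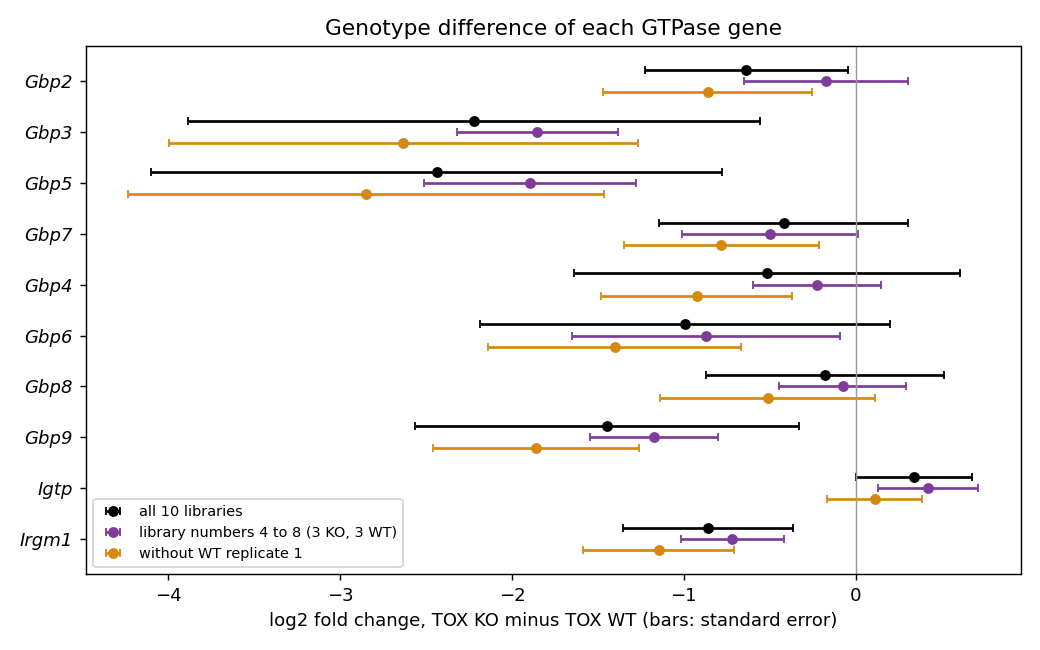
Log2 fold change of each GTPase, TOX KO minus TOX WT, with SE bars, from all 10 libraries (black), from library numbers 4 to 8 with 3 KO and 3 WT libraries (purple), and from all libraries but WT replicate 1 (orange). Igtp lies above 0 in all 3 fits drawn and the other 9 members lie below 0; in fits not drawn, with the library set as a term or by limma-voom, 5 of the 10 members were above 0.

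Per kilobase of exon, on the CPM scale, Igtp led in both groups, with 142 in KO and 113 in WT. Irgm1 followed at 18.9 in KO and 34.3 in WT, and Gbp2 at 18.2 in KO and 28.3 in WT, so these neighbours lay within each other's spread. Gbp4 stood at 4.85 in KO and 6.93 in WT, and the remaining members were between 0.381 and 3.12 in KO and between 0.684 and 8.93 in WT. Summed over the 10 members on the CPM scale, Igtp and Irgm1 made up 65.5% to 85.7% in KO libraries and 63.1% to 82.2% in WT libraries.

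Within library numbers 4 to 8, with 3 libraries a group, Gbp3, Gbp5, Gbp9 and Irgm1 were lower in every KO library than in any WT library. That is 4 of the 10 members, against 20.5% of all genes lower without overlap, and 0 members were higher without overlap, against 13%. The log2 fold changes in that fit were -1.85 for Gbp3 (adjusted p 0.061), -1.89 for Gbp5 (adjusted p 0.12), -1.17 for Gbp9 (adjusted p 0.12) and -0.72 for Irgm1 (adjusted p 0.20), all by edgeR. None of the 10 was called there, while 0.842% of genes were called higher and 7.18% lower. With all libraries but WT replicate 1, the lowest adjusted p of a member was 0.069, for Gbp9 at a log2 fold change of -1.86, and 2.92% of genes were called higher and 7.9% lower. In numbers 1 to 3, with 1 WT library, Gbp4 was the 1 member called, higher in KO (adjusted p 0.044), where 2.1% of genes were called higher and 0.524% lower; the WT side of that fit is 1 library with 1 count of Gbp4 and is assumed to vary like the 3 KO libraries. The summed B cell list and the summed myeloid and dendritic list were above every KO library in every WT library, though single markers overlapped. Both sums were lowest in WT replicate 1 among the WT libraries. The B cell list had 2697 CPM there, against 10240, 6710 and 6281 CPM in WT replicates 2 to 4. For the myeloid and dendritic list the values were 1956 CPM against 2589, 2439 and 7475 CPM. Immunoglobulin genes made up 0.82% of counts in WT replicate 1 and 7.37%, 7.66% and 16.7% in WT replicates 2 to 4. In KO libraries that share was at most 0.19%. The part of other cells in the 4 members was not tested.

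The larger contrast was between the sets of library numbers. Beside genotype in one edgeR fit, all 10 members had a negative fold change of numbers 1 to 3 against 4 to 8, with a median of -1.90 on the log2 scale against -0.09 over all genes. Gbp2 was called, at 23.9 CPM on average in numbers 1 to 3 (n = 4) and 77.4 CPM in numbers 4 to 8 (n = 6), a log2 fold change of -1.62 ± 0.39 (SE) with an adjusted p of 0.022. That is 1 of 10 members, against 14% of genes called in either direction and 4.95% called lower. The libraries of the sets did not overlap for Gbp2, Gbp3, Gbp4, Gbp5, Gbp9 and Irgm1, 6 of the 10 members, against 7.56% of all genes lower without overlap. For Gbp3 the margin was narrow, with the highest library of numbers 1 to 3 at 6.094 CPM and the lowest of numbers 4 to 8 at 6.097 CPM. Among the KO libraries alone 7 members were lower without overlap, the same 6 and Igtp, against 14.7% of all genes. Igtp (-0.77), Irgm1 (-1.17), Gbp4 (-2.79), Gbp5 (-4.98) and Gbp9 (-2.76) had an unadjusted p under 0.05 and adjusted p-values of 0.078 to 0.16, and were not called. What the numbers stand for, and the part of depth or RNA quality in this contrast, was not tested.

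The members varied together within a genotype. Over the 45 pairs of members, the Pearson correlation of their deviations from the genotype means across 10 libraries was between 0.57 and 0.99, with a median of 0.83. It was positive in 45 of the 45 pairs, with Gbp4 and Gbp9 the closest pair. The points share library, depth and the split by library number, so the correlations are a description only. By the same measure, taken against the mean of the members, the genes most alike among 7819 were Clk4 (r = 0.993), Pnrc2 (0.992), Armc8 (0.988), Rbm6 (0.988), Ipp (0.988) and Brd8 (0.987). Clk4, for one, ran from 5.45 to 28.4 CPM in KO numbers 1 to 3 and from 44.4 to 78.7 CPM in KO numbers 4 to 8, while the WT libraries held 0.725 CPM (replicate 1) and between 70.9 and 89.4 CPM (replicates 2 to 4).

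WT replicate 1 lacked several members altogether. Of its 45481478 counts, 0 were assigned to Gbp3, Gbp5 and Gbp6 and 1 each to Gbp4 and Gbp9, while Gbp2 had 1418. Among the 8 members that averaged 8 CPM or more in WT replicates 2 to 4, 4 had at most 1 count in WT replicate 1, against 7.01% of the 7805 genes at that level. The same library had 35.7 CPM of Ifng and 965 CPM of Socs1. Any link between those levels and the missing members was not tested.

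Upstream of the GTPases, the ligand and the transcription factor lay in opposite directions, neither past the threshold over all 10 libraries. Ifng, the cytokine that induces the family, had 0.021 to 5.28 CPM in KO (median 3.33) and 35.7, 41.6, 11.5 and 76.8 CPM in WT replicates 1 to 4. Every WT library was above every KO library. The log2 fold change was -3.85 ± 1.07 (SE), with an adjusted p by edgeR of 0.089 over all libraries, 0.036 within numbers 4 to 8 and 0.054 without WT replicate 1.
Irf1, the transcription factor that interferon gamma induces and that acts on GTPase promoters, had 643 to 855 CPM in KO (median 710.0) and 468, 194, 438 and 235 CPM in WT replicates 1 to 4. Here every KO library was above every WT library. Its log2 fold change was 1.11 ± 0.28 (SE), with an adjusted p by edgeR of 0.067 over all libraries, 0.072 within numbers 4 to 8 and 0.018 without WT replicate 1.

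Socs1, the feedback inhibitor of the receptor's kinases, ran opposite to the members between the sets of library numbers, and a link was not tested. Socs1 had 713, 763 and 504 CPM in KO numbers 1 to 3 and 25.7, 12.9 and 13.2 CPM in KO numbers 4 to 8. WT replicate 1 had 965 CPM of Socs1, and WT replicates 2 to 4 had 8.70, 7.93 and 4.76 CPM. The set difference was 5.94 on the log2 scale, with an adjusted p of 1.9e-05 by edgeR. Ifngr2, a receptor chain, was also higher in numbers 1 to 3, by 2.88 on the log2 scale (adjusted p 6.7e-04).
Of the 10 genes of interferon gamma signalling described here, 0 were called between KO and WT by edgeR, with a median log2 fold change of 0.26; at an unadjusted p of 0.05 there were 2, Ifng and Irf1, which DESeq2 and limma-voom both called. Between the sets, 4 of the 10 were called higher in numbers 1 to 3, against 1282 of all 14214 genes tested.

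**Figure D4:**
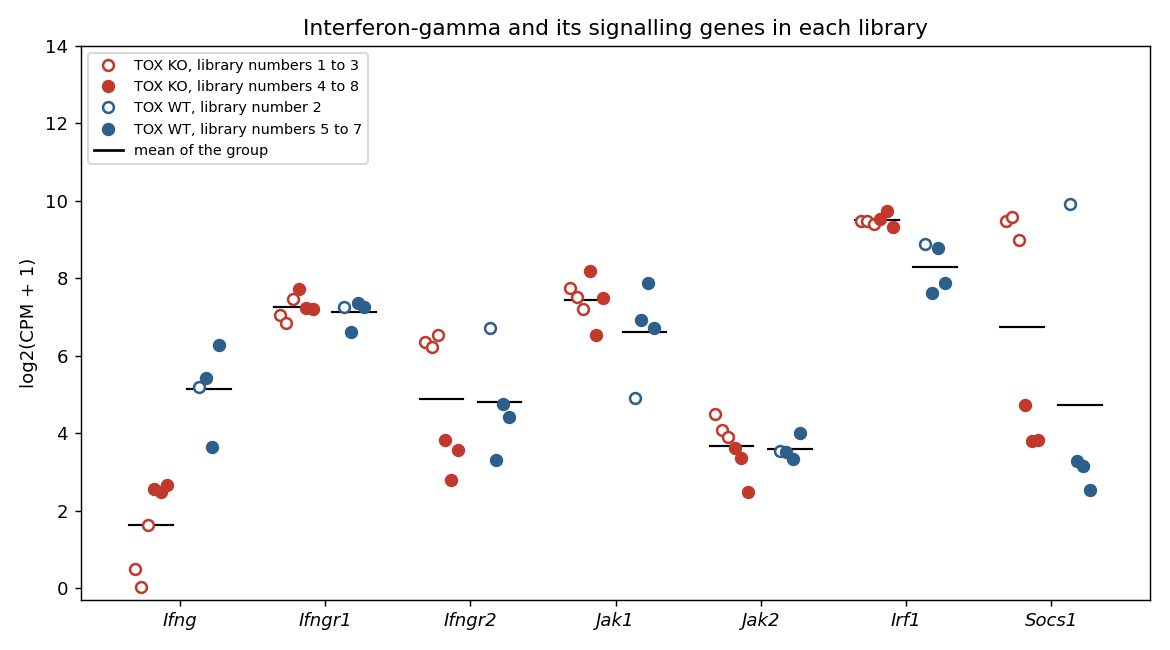
Level of Ifng and 6 genes of its signalling pathway, as log2(CPM + 1), in every library; red is TOX KO (6) and blue TOX WT (4), open circles are library numbers 1 to 3, filled circles 4 to 8, and bars are group means. Ifng and Irf1 separate the genotypes in opposite directions, while Socs1 and Ifngr2 separate the library numbers.

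The other interferon-inducible GTPases gave no call between the genotypes by edgeR either. Of 14 present, 11 were tested by edgeR and 0 were called between KO and WT, also at an unadjusted p of 0.05, with a median log2 fold change of -0.60. Limma-voom called Mx1 lower (adjusted p 0.042), and DESeq2 called Gbp11 lower (adjusted p 0.016), a gene of at most 1.21 CPM that edgeR's filter left out. Between the sets, 9 of the 11 had a negative fold change of numbers 1 to 3 against 4 to 8. The median was -2.42 on the log2 scale, beside -0.09 over all genes tested. By edgeR 1 of the 11 was called lower in numbers 1 to 3, against 4.95% of all genes. Ifi47, an immunity-related GTPase, had 369 ± 55.5 CPM in KO and 389 ± 90.3 CPM in WT. Its set difference was 0.020 on the log2 scale (adjusted p 0.97 by edgeR), so none was detected for this gene. The set effect of Ifi47 was not tested against that of Gbp2. Irgm2, the third regulatory GTPase, whose exons overlap those of Igtp by 162 bases, had 35.1 ± 13.6 CPM in KO libraries and 51.8 ± 25.3 CPM in WT libraries (log2 fold change -0.56, adjusted p 0.53). Mx1, an antiviral GTPase of the dynamin family, had 2.51 ± 4.11 CPM in KO libraries and 17.8 ± 7.69 CPM in WT libraries (log2 fold change -2.83, adjusted p 0.32 by edgeR).

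Of 17 interferon gamma response targets tested by edgeR, 1 was called between KO and WT. Ciita, the master regulator of MHC class II genes, was lower in KO, at 6.26 ± 4.51 CPM against 291 ± 215 CPM in WT, with an adjusted p of 0.026 by edgeR; the call was lost in 6 of 10 fits that left out 1 library, at up to 0.074, and by limma-voom (adjusted p 0.098). In that list DESeq2 called 6 genes, 5 lower and 1 higher in KO, and limma-voom 2, Cxcl9 lower and Tapbp higher. B cells and dendritic cells also transcribe Ciita, and the sums of their marker lists were higher in every WT library, as given above, though single markers overlapped; their part in the Ciita result was not tested. Of 26 type I interferon genes, 2 were lower in KO, with a median log2 fold change of -0.64. Parp14, an ADP-ribosyltransferase, had 9.94 ± 1.30 CPM in KO and 25.6 ± 1.96 CPM in WT (adjusted p 0.037, lost in 9 of 10 such fits, at up to 0.14). Oasl1, of the oligoadenylate synthetase family, had 19.2 ± 5.94 CPM in KO and 55.0 ± 19.8 CPM in WT (adjusted p 0.047, lost in 8 of 10, at up to 0.23). DESeq2 called 5 genes of that list, 4 lower and 1 higher in KO, and limma-voom the same 2 as edgeR.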

How the data were processed

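The deposited tables hold, for each of the 10 libraries, raw read counts and the exon length of each gene. Per the file headers, these counts came from featureCounts 1.6.2 with a GENCODE M17 annotation, run with no option for strand or for reads with several hits. The submitters' processing notes name STAR and FastQC, with no settings. Per the labels' protocols, RNA was amplified with a SMART-seq V4 kit and sequenced in pairs. That kit does not mark strand, so reads of overlapping genes on either strand can be mixed.

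Genes were kept by filterByExpr (14214 of 53656; 10 of 10 members), scaled by trimmed mean of M-values and tested for genotype with the quasi-likelihood test of edgeR 4.0.16 in R 4.3.3, with Benjamini-Hochberg adjustment over all genes tested and a threshold of 0.05. Fold changes are log2, KO minus WT. SE is the fold change over the root of the test's F. DESeq2 1.42.0 and limma 3.58.1 were alternatives, as were other scalings, filters, single library sets and leaving out each library. The test was run on simulated counts with no difference between the sets of library numbers, so that run does not cover such a split. Library numbers came from the library names, and their fits were added after the data were seen. Correlations used log2 CPM with a prior count of 2. No pair of libraries within a group was a duplicate (lowest chi-square per degree of freedom 133).

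The members and gene lists were chosen with earlier results of these data known. Named were the 10 members, tested genes of the GTPase and interferon gamma signalling lists, up to 4 called and up to 4 of the 4 most abundant genes of each other list, the 2 most abundant markers per cell type, and the 6 genes most alike. Genes named for a call by DESeq2 or limma-voom alone, Nlrc5, Cd8a, Gbp11 and Pggt1b were added after their values were seen. A gene of the signalling list is not reported here. Intervals of counts cover counting error only, since reads carry no molecular identifiers. Loci, exon overlaps and shared windows used GENCODE M21 on GRCm38 and the deposited exon coordinates.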

Additional observations from a re-analysis of the deposited data

Results flagged for a closer look

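For 3 members the difference between KO and WT itself differed between the sets of library numbers, by the interaction term of an edgeR fit. The difference in numbers 1 to 3 minus that in numbers 4 to 8 was 9.52 for Gbp4 (adjusted p 8.7e-04), 9.88 for Gbp6 (adjusted p 0.034) and 8.91 for Gbp9 (adjusted p 0.0034) on the log2 scale, where 10% of all genes were called. In numbers 1 to 3 all 3 KO libraries were above the WT library, which had 1, 0 and 1 counts of these genes, so the sizes depend on the prior count and are no measured folds. In numbers 4 to 8 the KO mean was below the WT mean for each. The term rests on WT replicate 1, the 1 WT library of numbers 1 to 3, and cannot be fitted without it. The Gbp6 call was lost without WT replicate 2 (adjusted p 0.057) or WT replicate 4 (adjusted p 0.056). Among the other genes named, the same term was 3.07 for Nlrc5 (adjusted p 0.040), 4.94 for Clk4 (adjusted p 0.026) and 5.17 for Fntb (adjusted p 0.0035), resting on the same library.

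Single libraries were examined against the rest of their group by Dixon's ratio in 60 groups of values, where chance sets apart about 1 group in 20. The values were CPM, not on a log scale, and by this rule no member stood out by itself. The rule can miss a library near 0 among 4. It did not flag Gbp4 in WT replicate 1, at 0.024 CPM against 68.7, 57.2 and 81.7 CPM in WT replicates 2 to 4. The ratio of Igtp to Irgm1 stood out in KO replicate 1, at 6.49. Mx1 did in KO replicate 4, at 10.5 CPM. Socs1 did in WT replicate 1, at 965 CPM the highest WT library.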

How the results depend on the processing

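Between KO and WT, 61 genes were higher and 384 lower. These counts were 697 and 1600 by DESeq2, 204 and 680 by limma-voom, 121 and 1033 in library numbers 4 to 8, 316 and 79 in numbers 1 to 3, and 7 and 121 at a threshold of 0.01. With the library set as a term 116 were higher, without a low count filter 39 were higher, and without immunoglobulin genes 222 were lower. Leaving out 1 library gave 10 to 443 higher and 143 to 1201 lower, the top of both ranges without WT replicate 1 and the bottom without WT replicate 4. With the replicate numbers as a block 0 and 0 were called. Deviations of libraries with the same replicate number had r from -0.25 to 0.30. Libraries with the same library number had r of 0.32 (KO replicate 2 with WT replicate 1) and 0.13 (KO replicate 5 with WT replicate 3). The sign of r followed the sets of library numbers throughout, so these values cannot decide whether libraries were paired. Members called stayed at 0 under all but 1 setting: in numbers 1 to 3, with 1 WT library, Gbp4 was higher. Members lower in numbers 1 to 3 than in 4 to 8 were 1 by edgeR, 6 by DESeq2 and 1 to 4 when a library was left out. Of all genes, edgeR called 4.95% lower in that contrast. For DESeq2 and the fits without a library, here and in the next count, the share of all genes was not taken. Those counts are therefore no result about the members. Members whose genotype difference changed with the set were 3 by edgeR, 6 by DESeq2 and 2 to 3 when a library was left out. The direction turned positive in numbers 1 to 3 for Gbp3 (9.52), Gbp4 (9.27), Gbp5 (6.72), Gbp6 (9.06), Gbp7 (2.29), Gbp8 (1.58), Gbp9 (7.73) and Irgm1 (0.32); the WT side there is 1 library with 0 or 1 counts of Gbp3, Gbp4, Gbp5, Gbp6 and Gbp9, so these 5 sizes depend on the prior count. It also turned by limma-voom for Gbp4 (1.65), Gbp6 (0.67), Gbp7 (0.00060) and Gbp9 (0.49), and with the library set as a term for Gbp4 (0.69), Gbp6 (0.049), Gbp7 (0.12) and Gbp8 (0.35). With 1 library left out, Gbp7 ran from -0.78 (without WT replicate 1) to 0.081 (without WT replicate 4), Gbp8 from -0.51 (without WT replicate 1) to 0.059 (without WT replicate 4) and 0.096 (without KO replicate 1), and the interaction of Gbp2 from -0.80 (without KO replicate 6) to 0.10 (without KO replicate 4). The cause of these changes was not tested. Upper quartile scaling moved the median of all genes by -0.13. Low counts limit Gbp5, Gbp6 and Gbp7.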

Other observations

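The enzymes that prepare prenyl anchors, which Gbp2 and Gbp5 carry at their tails, were described as well. Of 5 prenylation enzymes tested 0 were called between KO and WT by edgeR, DESeq2 or limma-voom, with a median log2 fold change of 0.81 and 1, Fntb, at an unadjusted p under 0.05. Fntb, the beta subunit of farnesyltransferase, had 55.4 ± 18.9 CPM in KO and 15.4 ± 10.3 CPM in WT, with an adjusted p of 0.21 by edgeR; all 6 KO libraries were above all 4 WT libraries. Rce1, the protease that trims prenylated proteins, had 149.8 ± 64.9 CPM in KO and 85.6 ± 97.8 CPM in WT (adjusted p 0.55). Pggt1b was the 1 enzyme of this list with a negative log2 fold change, of -0.82 (adjusted p 0.75 by edgeR). Which of these enzymes acts on Gbp2 or Gbp5 was not tested. Of 19 vacuole and inflammasome partners tested by edgeR 0 were called, with 6 at an unadjusted p under 0.05. DESeq2 called Atg12 (adjusted p 0.024), Aim2 (0.019), Cybb (0.020) and Nlrp3 (0.0012) lower, and limma-voom called Aim2 lower (0.041). Cyba, a subunit of the phagocyte oxidase and the most abundant partner, had 914 ± 267 CPM in KO and 1012 ± 376 CPM in WT (adjusted p 0.84). Sqstm1, an autophagy receptor that binds ubiquitin, had 679.8 ± 189.9 CPM in KO and 244 ± 216 CPM in WT (adjusted p 0.25), and Map1lc3b, an autophagosome protein, had 548 ± 70.1 CPM in KO and 507 ± 103 CPM in WT (adjusted p 0.81).

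Summed over the 10 members, the family reached 273, 382, 457, 737, 730.3 and 524 CPM in KO replicates 1 to 6 and 209, 886, 534 and 960 CPM in WT replicates 1 to 4. Nlrc5, the regulator of MHC class I genes and an interferon gamma target, had the split of the members: it was lower in library numbers 1 to 3 than in 4 to 8 by a log2 fold change of -2.94 (adjusted p 0.012 by edgeR) and was not called between KO and WT. Nlrc5 was chosen after its values were seen. Of the 17 interferon gamma response targets tested, 1 was called lower in numbers 1 to 3 and 2 higher. Their median set difference was -0.18 on the log2 scale. Over all 14214 genes tested, 704 were called lower and 1282 higher in that contrast.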
